A study of Mus musculus with 32 samples.

Results

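The histone genes of mouse colonic stem and progenitor cells were analysed, with the linker histone gene H1f5 as their starting point. They were chosen by symbol, which gave 75 of the 23517 genes in the count table, and the family was taken up because H1f5 had one of the smaller p-values for bethanechol in mice BR7 to BR10. Its values in that comparison are therefore given as a description without a test. All mice carried the Lgr5-EGFP-IRES-CreERT2 allele, in which EGFP is expressed from the Lgr5 locus and marks stem and progenitor cells. Colonoids, epithelial organoids of the proximal colon, were grown in L-WRN medium and left untreated or given 250 nM bethanechol (Bch), a muscarinic receptor agonist, for 4 days, and Lgr5-EGFP+ cells were sorted. Mice BR1 to BR4 were labelled male, with sorted Lgr5+ cells as the source and the RNeasy Plus Micro kit. Mice BR7 to BR10 carried no sex label, were taken as female from the design of the series, had colonic organoids as the source label and were extracted with the RNeasy Mini kit. Sex, kit and source label therefore cannot be told apart between the sets, and the ages of the mice were not given in the sources used here. Each of the 8 mice gave an untreated and a Bch sum of 2 technical replicates, and these 16 sums held 557512 to 4050342 unique molecular identifiers (UMIs), with the fewest in untreated BR3. Histone genes took 0.467 to 0.618% of the UMIs of a sum. Between 2361 and 3504 cells were sorted for every sum other than untreated BR1, for which 13114 were sorted.

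Histones package DNA in nucleosomes, in which H2A, H2B, H3 and H4 form the core and H1, the linker histone, binds DNA where it enters and leaves. Replication-dependent histone genes lie in clusters and are transcribed in S phase, when new DNA needs new nucleosomes, and their mRNAs end in a conserved stem-loop, bound by SLBP, in place of a poly(A) tail. Replacement variants such as H3.3, H2A.Z and macroH2A are made throughout the cell cycle from ordinary polyadenylated mRNAs, and H1.0, encoded by H1f0, accumulates in cells that leave the cycle. In the crypt, dividing progenitors are the main users of replication-dependent histones. cDNA was primed here with oligo-dT, so that mRNAs without a poly(A) tail are poorly captured, and levels of replication-dependent genes and of variants are not comparable as amounts of mRNA.

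The members comprised 5 replication-dependent linker genes (H1f1 to H1f5), 53 replication-dependent core genes, 8 core variants, 2 linker variants (H1f0 and H1f10) and 7 pseudogenes or antisense genes. On GRCm38, 51 members lay in the large cluster on chromosome 13 at chr13:21715763-23934851 and 8 in a smaller cluster at chr3:96219865-96270132. H1f5 (Hist1h1b in the older nomenclature) lies near one end of the large cluster, on the minus strand at chr13:21779883-21780625, and its transcript model is a single exon of 743 bases. The other replication-dependent linker genes lie together within the same cluster, H1f4 at chr13:23620629-23622558 on the minus strand.

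The promoters of the 5 replication-dependent linker genes are shown because H1f5 and H1f4, on which the results turn, belong to this class. Each window runs 5′ to 3′ on the strand of the gene, from 130 bases before the start of transcription to the tenth transcribed base, as RefSeq gives it on GRCm38.p6. Capitals mark the H1 box (AAACACA). They also mark the CCAAT box on either strand and, nearest to the start, the TATA box (letters TATAAA). The windows are at chr13:21780616-21780755 (minus strand) for H1f5, chr13:23622549-23622688 (minus strand) for H1f4, chr13:23554902-23555041 (plus strand) for H1f3, chr13:23738677-23738816 (plus strand) for H1f2 and chr13:23763538-23763677 (plus strand) for H1f1.
H1f5: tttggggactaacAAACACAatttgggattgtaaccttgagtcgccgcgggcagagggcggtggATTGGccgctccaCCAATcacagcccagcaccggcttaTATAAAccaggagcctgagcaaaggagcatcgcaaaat
H1f4: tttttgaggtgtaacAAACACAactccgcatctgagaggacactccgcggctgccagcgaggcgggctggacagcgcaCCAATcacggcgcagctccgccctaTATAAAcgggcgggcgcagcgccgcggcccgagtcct
H1f3: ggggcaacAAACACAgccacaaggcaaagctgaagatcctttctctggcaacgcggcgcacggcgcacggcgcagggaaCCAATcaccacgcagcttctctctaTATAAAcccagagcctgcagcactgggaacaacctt
H1f2: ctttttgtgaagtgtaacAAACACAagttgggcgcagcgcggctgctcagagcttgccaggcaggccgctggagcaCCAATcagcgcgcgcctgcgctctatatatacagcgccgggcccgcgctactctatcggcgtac
H1f1: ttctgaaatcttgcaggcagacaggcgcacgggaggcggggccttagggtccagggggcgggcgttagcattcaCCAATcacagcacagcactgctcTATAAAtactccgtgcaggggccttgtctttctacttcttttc

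The H1 box was found in 4 of the 5 replication-dependent linker promoters, with its first base 112 to 122 bases before the start, and was not found in that of H1f1. Among the 12537 genes of the count table with a promoter sequence, 5.96% held these letters on either strand within their 300 bases. CCAAT lay 51 to 56 bases before the start in all 5, and H1f5 alone of them held 2 further copies, of which 1 lay on the opposite strand 66 bases before the start. CCAAT was present in 42.7% of the promoters of the table. TATAAA was found 26 to 33 bases before the start in 4 of the 5, against 10.4% of the table, and H1f2 lacked these exact letters. Both strands were read, no motif searched is contained in another, and a match is a description of the sequence. The promoters of H1f0 and H1f10 held none of these motifs. Of the 42 replication-dependent core genes with a promoter, 36 held CCAAT, 24 TATAAA and 12 the octamer ATTTGCAT, which was present in 1.78% of the promoters of the table. The octamer was found in 6 of 11 H2B promoters and in 0 of the 5 linker promoters. In the map of these positions, the boxes of H1f2 to H1f5 stand at nearly the same distances.

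**Figure D1:**
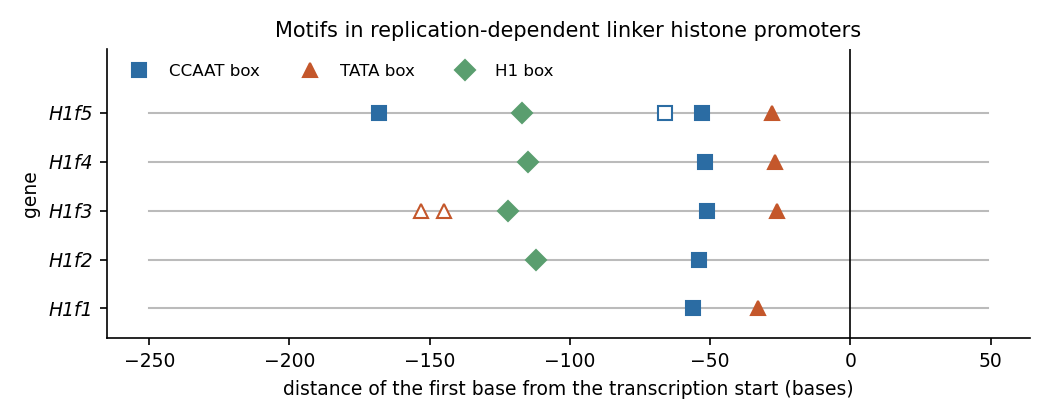
Position of the first base of each motif (x axis, bases from the start of transcription, which is at 0) in the promoters of the 5 replication-dependent linker genes (rows), with filled symbols for the strand of the gene and open symbols for the opposite strand. The H1 box stands 112 to 122 bases before the start in H1f2 to H1f5 and is missing from the row of H1f1.

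The stem-loop sequences are shown because this element sets the 3′ end of replication-dependent mRNAs. They come from the GENCODE M21 transcript models on GRCm38, run 5′ to 3′ on the strand of the gene with up to 3 bases before and 5 after, and have the match to the stem-loop consensus in capitals.
H1f1: aacGGCTCTTTTCAGAGc
H2ac11: aaaGGCTCTTTTCAGAGccacc
H2ac20: aaaGGCTCTTTTTAGAGccacc
H2ac8: aaaGGCTCTTTTCAGAGccatt
H3c2: aaaGGCTCTTTTCAGAGccacc
H4c4: aaaGGCCCTTTTCAGGGccact

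The consensus was present in the models of 35 of 53 replication-dependent core genes (66%) and 4 of 5 replication-dependent linker genes (80%), against 76 of 21877 protein-coding genes (0.347%). H1f5 was the linker gene without it in its model, and no sequence past the end of that model was searched. Of the variants, only H2ax held the consensus. The printed loops of H1f1, H2ac11, H2ac8 and H3c2 share the same capitals, while H2ac20 and H4c4 have others. The model of H1f1 ends 1 base after the match, and that of H2ac8, the most counted replication-dependent gene, runs 153 bases past it and has a polyadenylation signal (AATAAA or ATTAAA) within its last 60 bases. Among the 58 replication-dependent genes, the 17 whose models run 100 bases or more past the stem-loop had a median of 160 UMIs over all sums, and the 22 with shorter extensions a median of 70. Both groups span a wide range, with H2ac8 at 11164 UMIs in the first and H2ac20 at 1392 in the second. The 19 without the consensus in their models had a median of 77 UMIs. Split by the polyadenylation signal the order was the other way, with a median of 56.5 UMIs in the 10 genes with it and 86 in the 48 without it.

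Histone UMIs came mostly from variants. The 8 core variants held 71.1% of the 180832 histone UMIs, the 53 replication-dependent core genes 15.2%, the linker variants 7.02% and the 5 replication-dependent linker genes 6.25%. Levels are given as CPM, the UMI count scaled to the library total after TMM normalization, in which a molecule counts once whatever its length. The gene with the highest mean level was H3f3b, which encodes H3.3, at 1030 CPM over the 16 sums, followed by H2aj, a variant H2A, at 841 CPM and by H2az2, an H2A.Z gene, at 740 CPM. H1f5 was the most counted replication-dependent linker gene, with 6131 UMIs in all and 54.3% of the UMIs of its class. H2ac8 held 65.8% of the UMIs of the 16 replication-dependent H2A genes and H2bc4 held 74.5% of those of the 14 H2B genes. The 11 replication-dependent H3 genes together held 976 UMIs. In all, 41 members had fewer than 200 UMIs over the 16 sums, and 37 of the 75 members passed edgeR's filter on low counts in at least 1 comparison, so that counts of tested members below are not counts of the family.

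Near-identical sequences affect how UMIs are assigned within the family. Reads of 65 bases from the last 500 bases of a transcript model would match another gene for over 50% of positions in 33 members and for none in 22. H1f5, H1f1, H1f2 and H1f3 shared none of these 65-base stretches with another gene. For H1f4 the shared part was 99.1% near the end of its M21 model, which runs into H2bc6 on the same strand, and 29.8% over the whole model, so that UMIs of these genes may have been split or pooled in counting. H2bc6 itself held 41 UMIs against 3146 for H1f4. The corresponding shares near the end were 51.1% for H2ac8, which shares most with H2ac7, and 78.1% for H2ac11. For H2ac4, H2ac10 and the pseudogene Hist1h2al they were 56.5%, 74.3% and 54.9%.

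H1f5 was higher with Bch in 4 of 4 mice of BR7 to BR10 and in 3 of 4 of BR1 to BR4. In untreated cells of BR7, BR8, BR9 and BR10 its level was 195, 191, 113 and 195 CPM, and with Bch it was 208, 251, 200 and 368 CPM. The groups did not overlap, from which nothing is read because this comparison was used in choosing the family. The Bch levels of BR7 and BR9 lay close to the untreated levels of the other mice. The increase was smallest in BR7 and largest in BR9 and BR10. The log2 fold change was 0.57 (standard error, SE, 0.14), and without BR10 it was 0.43. In BR1, BR2, BR3 and BR4 the untreated level was 195, 132, 103 and 107 CPM and the Bch level 249, 123, 124 and 113 CPM. Here BR1 stood above the other mice in both treatments, and BR2 was slightly lower with Bch. The log2 fold change in BR1 to BR4 was 0.14 (SE 0.11), which did not pass the threshold (edgeR's adjusted p = 0.852). Over the alternatives it ranged from 0.04 without BR1 to 0.26 with technical replicate 2 alone. The fitted difference between the responses of BR7 to BR10 and of BR1 to BR4 was 0.43 on the log2 scale and is given without a test.

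H1f4, which encodes another S phase linker histone, was higher with Bch in 8 of 8 mice. Its untreated level in BR1 to BR4 was 93.4, 53.0, 55.9 and 72.6 CPM, and its Bch level 179, 90.4, 70.6 and 76.4 CPM. The difference was largest in BR1 and smallest in BR4, and the groups overlapped. The log2 fold change in BR1 to BR4 was 0.56 (SE 0.14). With an unadjusted p of 0.000382 it ranked 31 among 9509 genes, and it missed the threshold after adjustment over all genes (edgeR's adjusted p = 0.117). Without the filter on low counts the adjusted p was 0.00748 and without BR3 it was 0.0222, whereas without BR1 the log2 fold change was 0.37 and the adjusted p was 0.621 by the same test. In BR7 to BR10 its untreated level was 55.9, 108, 59.5 and 118 CPM and its Bch level 79.5, 117, 97.5 and 136 CPM, a log2 fold change of 0.37 (SE 0.15). Of the 10280 genes tested over all 8 pairs, 0.554% were higher in 8 of 8 pairs and 0.447% were lower in 8 of 8. H1f4 was the only histone gene of the 37 tested that was higher in every pair, and 0 were lower in every pair.

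The remaining H1 genes did not follow this pattern in every mouse. H1f3 had a log2 fold change of 0.58 (SE 0.29) in BR1 to BR4 that was 0.20 without BR1, with log2 ratios of 1.445, -0.039, 0.017 and 0.522 in the single mice. It was higher in 2 of 4 mice of BR7 to BR10 (0.21, SE 0.26), with 0.02 without BR8. H1f2 was higher in 2 of 4 mice of each set and H1f1 in 2 of 4 of each set, with H1f1 at only 11.5 CPM on average. H1f0, the H1.0 gene, was lower in 3 of 4 mice of BR1 to BR4, with a log2 fold change of -0.23 (SE 0.11, edgeR's adjusted p = 0.642) that was -0.05 without BR3 and -0.39 without BR1. Its untreated level there was 433, 340, 395 and 265 CPM and its Bch level 487, 273, 223 and 260 CPM, so that BR1 was higher, BR2 and BR3 lower and BR4 nearly the same. In the plot of linker genes the lines of H1f4 all slope upward, while those of H1f0 cross.

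**Figure D2:**
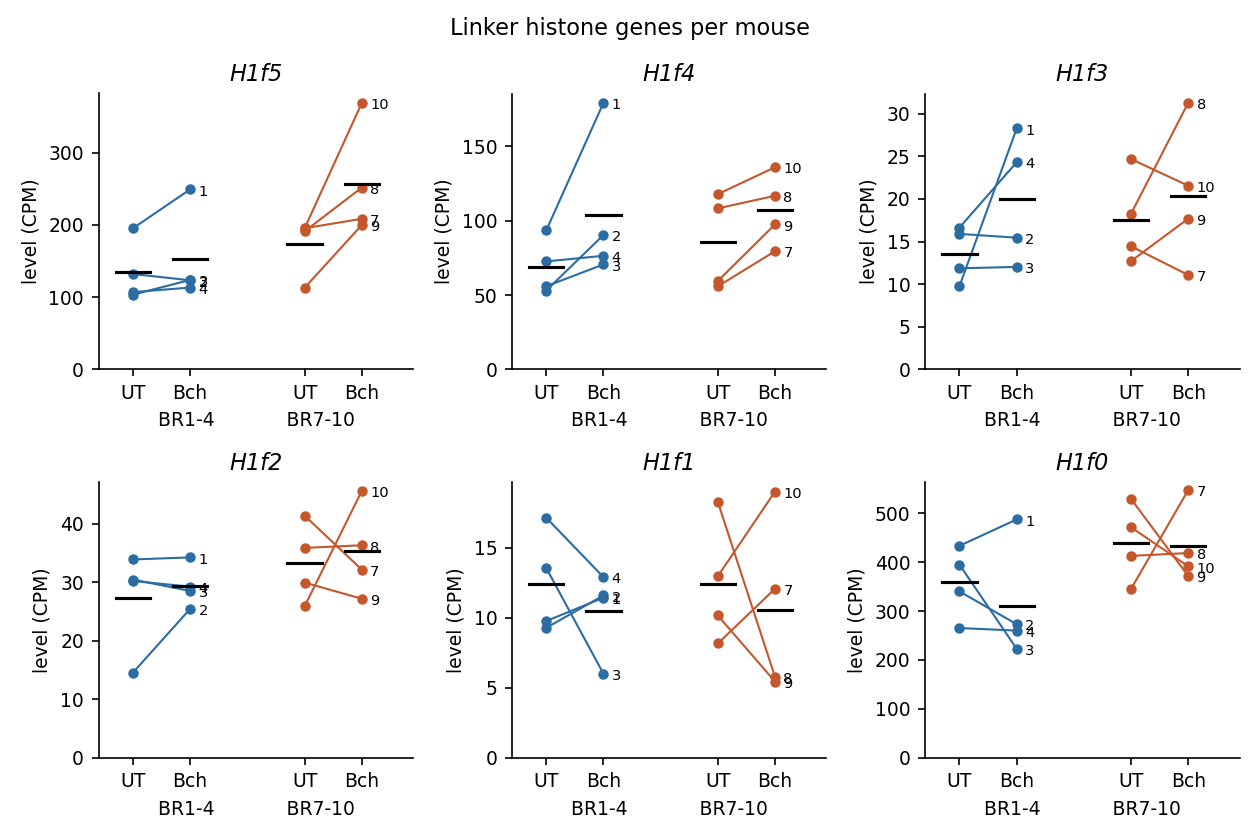
Level (CPM, y axis from 0) of 6 linker histone genes in untreated (UT) and Bch-treated cells, with a line for each mouse, its number at the right, and a black bar for the mean of 4 mice. Mean H1f5 was 173 CPM untreated and 257 CPM with Bch in BR7-10, and 134 and 152 CPM in BR1-4.

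As a share of all H1 UMIs, which does not depend on normalization, H1f4 made up 11.1% ± 2.40 (SD, n = 4) of the untreated and 16.1% ± 1.54 (SD, n = 4) of the Bch-treated cells of BR1 to BR4. The share was higher with Bch in each of these mice, by 0.479 to 7.33 percentage points. In BR7 to BR10 the share of H1f4 was 10.9% ± 3.24 (SD, n = 4) untreated and 12.4% ± 2.36 (SD, n = 4) with Bch, a difference within the spread between mice. H1f0 made up 57.7% ± 5.41 (SD, n = 4) of H1 UMIs in untreated and 49.2% ± 1.14 (SD, n = 4) in Bch-treated cells of BR1 to BR4, and was lower with Bch in 4 of 4. In BR7 to BR10 its share was 57.2% ± 8.31 (SD, n = 4) untreated and 50.0% ± 8.8 (SD, n = 4) with Bch. It was lower with Bch in BR8, BR9 and BR10 and higher in BR7, at 60.9% against 52.1%. The share of H1f5 was 22.8% ± 6.05 (SD, n = 4) untreated and 29.2% ± 5.87 (SD, n = 4) with Bch in BR7 to BR10 and was lower with Bch in BR7, at 23.2% against 29.5%. These shares are given as descriptions.

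Among the replication-dependent core genes, 19 were tested for Bch in each set, and 13 of the 19 had a higher fitted level with Bch in BR1 to BR4 and 13 of 19 in BR7 to BR10. Of the 9509 genes tested in BR1 to BR4, 0.021% passed the threshold of an adjusted p of 0.05, and of the 9515 tested in BR7 to BR10, 0% did. The 2 genes called in BR1 to BR4, Rn7sk and Rps24-ps3, are not histone genes and are named because they are the only calls. In that set 5 of the 35 histone genes tested had an unadjusted p under 0.05, against 7.72% of all genes tested. These were H1f4, H3f3a, H2ac11 and H2az1, which had higher levels with Bch, and H1f0, which was lower. Over the 35 tested members the median log2 fold change was 0.144 in BR1 to BR4, with 23 higher, against 0.001 over all genes tested. In BR7 to BR10 it was 0.023, with 20 of 35 higher, against -0.002.

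The core genes higher in 4 of 4 mice of BR1 to BR4 with the smallest p-values were H2ac4, H2ac10 and the pseudogene Hist1h2al. H2ac4 went from 28.4, 13.3, 8.47 and 13.1 CPM untreated to 39.7, 20.9, 12.0 and 15.4 CPM with Bch, a log2 fold change of 0.46 (SE 0.25). H2ac10 had a log2 fold change of 0.54 (SE 0.32) and Hist1h2al of 0.71 (SE 0.38; 0.47 without BR3), at means of 13.5 and 11.2 CPM over the 16 sums. H2ac4, H2ac10 and Hist1h2al share much of their sequence with other genes, as given above, so these may not be separate changes. In this set 6 of 35 histone genes were higher in 4 of 4 mice, against 8.59% of all genes tested, and none of these changes passed the threshold (edgeR's lowest adjusted p = 0.117, for H1f4). H2bc4, the most counted H2B gene, was lower in 4 of 4 mice, from 149, 145, 112 and 130 CPM to 143, 111, 106 and 115 CPM, a log2 fold change of -0.19 (SE 0.11) that was -0.11 without BR2. In this set 3 of 35 histone genes were lower in 4 of 4 mice, against 6.71% of all genes tested.

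In BR7 to BR10, 2 of 35 histone genes were higher in 4 of 4 mice, H1f5 and H1f4, against 5.58% of all genes tested there, and since the choice of the family used this comparison nothing is read from that share. H2ac20 and the variant H2az2 were the 2 of 35 lower in 4 of 4, against 5.76% of all genes tested, from which nothing is read either. H2ac20 went from 57.8, 66.1, 44.7 and 49.1 CPM untreated to 36.2, 51.5, 39.5 and 45.2 CPM with Bch, a log2 fold change of -0.31 (SE 0.18). In BR1 to BR4 the same gene was higher in 3 of 4 mice. H2ac8 lay between 134 and 532 CPM in the 16 sums, with log2 fold changes of -0.02 (SE 0.14) in BR7 to BR10 and 0.22 (SE 0.11) in BR1 to BR4, the latter 0.11 without BR3 and 0.38 without BR4, and the sign of the former depended on the mice included. Over all 8 pairs, and for the difference between the responses of the sets, 0% of the 10280 genes tested passed the threshold by edgeR's quasi-likelihood test, with 555 and 451 genes at an unadjusted p under 0.05. DESeq2's Wald test also called 0 genes in both, with 366 and 238 at an unadjusted p under 0.05.

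**Figure D3:**
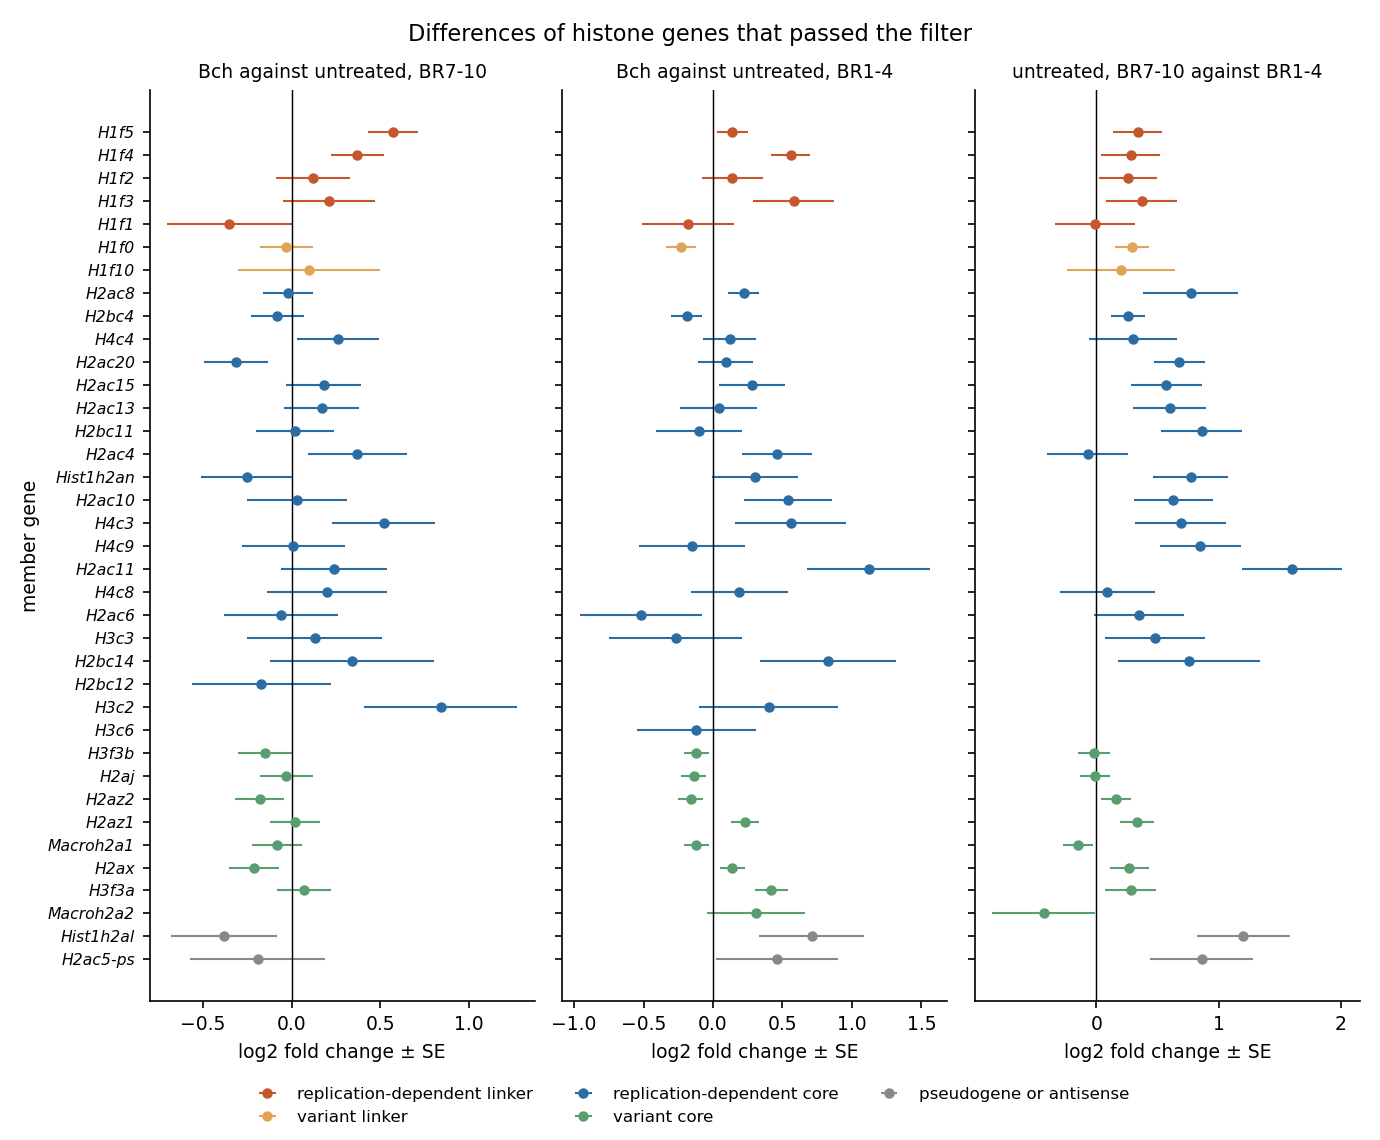
Log2 fold change with its SE (x axis) of the 37 histone genes that passed the filter in at least 1 comparison, ordered by class and level, for Bch in BR7-10, Bch in BR1-4 and untreated BR7-10 against untreated BR1-4. The x axes differ in range, H1f5 and H1f4 lie to the right of 0 in all panels, and most core genes lie to the right of 0 in the third panel.

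Variants, which supply nucleosomes outside S phase, had fitted changes of less than 0.5 on the log2 scale in both sets. H2az2 was lower with Bch in 4 of 4 mice of BR7 to BR10, from 921, 805, 855 and 736 CPM to 821, 696, 677 and 717 CPM, and in 3 of 4 of BR1 to BR4. Its log2 fold changes were -0.18 (SE 0.14) and -0.16 (SE 0.09), the latter -0.09 without BR2. H2az1, the other H2A.Z gene, had a log2 fold change of 0.23 in BR1 to BR4 (SE 0.10, edgeR's adjusted p = 0.576), which was 0.15 without BR2 and 0.35 without BR4. Its share of H2A.Z UMIs in BR1, BR2, BR3 and BR4 was 34.9%, 28.3%, 25.2% and 39.1% untreated and 35.1%, 41.2%, 36.5% and 39.2% with Bch, so that it differed in BR2 and BR3 and hardly in the other mice. H2az1 also differed most between the technical replicates, with 5666 UMIs in the first and 8221 in the second, and its log2 fold change was 0.21 and 0.23 in either alone. H2aj was lower in 4 of 4 mice of BR1 to BR4 (log2 fold change -0.14, SE 0.09), and so was Macroh2a1, which encodes macroH2A1 (-0.12, SE 0.09). Without BR3 these changes were -0.08 and -0.05.

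Of the variants H3f3a had the smallest p-value in BR1 to BR4. It is named after its values were seen, together with H2az1 and H1f3, for these comparisons. Its untreated level was 195, 182, 168 and 321 CPM and its Bch level 251, 335, 289 and 285 CPM, higher in 3 of 4 mice and lower in BR4. The log2 fold change was 0.42 (SE 0.12, edgeR's adjusted p = 0.204). The adjusted p was 0.00435 without the filter on low counts and 0.048 without BR4, where the log2 fold change was 0.66, and without BR2 the log2 fold change was 0.27 and the adjusted p 0.987 by the same test. H3f3b, which encodes the same H3.3 protein, was lower in 3 of 4 of these mice (log2 fold change -0.12, SE 0.09; -0.06 without BR3). An antisense gene, H3f3aos, lies over H3f3a, and whether counting used the strand was not given in the sources used here. H3f3aos itself held 8 UMIs in all.

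H2ax, which encodes H2A.X and has both a stem-loop and a polyadenylation signal, had a log2 fold change of 0.14 (SE 0.09) in BR1 to BR4 and -0.21 (SE 0.14) in BR7 to BR10, the latter -0.13 without BR10.

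Summed by class, the replication-dependent linker genes had a higher level with Bch in 8 of 8 mice. In BR1 to BR4 the untreated sums were 342, 225, 215 and 244 CPM and the Bch sums 502, 266, 241 and 256 CPM. The sums of BR7 to BR10 were 315, 372, 225 and 376 CPM untreated and 343, 442, 347 and 591 CPM with Bch. The mean log2 ratio per mouse was 0.258 ± 0.209 (SD, n = 4) in BR1 to BR4 and 0.412 ± 0.266 (SD, n = 4) in BR7 to BR10, and since H1f5 is over 50% of this class the second value shares the choice of the family. Without BR1 the ratio in BR1 to BR4 was 0.160, and with technical replicate 1 alone BR4 was lower with Bch. As the median over the 5 genes the ratio was 0.183 and 0.292 in the sets. The replication-dependent core sum had a ratio of 0.178 ± 0.234 (SD, n = 4) in BR1 to BR4 and 0.014 ± 0.112 (SD, n = 4) in BR7 to BR10, both within the spread between mice. The core variants, which hold most of the UMIs, had ratios of -0.038 ± 0.055 (SD, n = 4) and -0.099 ± 0.078 (SD, n = 4), and were lower in 3 of 4 mice and 4 of 4 mice. The lowest ratios of single mice were -0.1 in BR3 and -0.21 in BR9, so the size of both means depends on the mice included. The linker variants, 98.4% of which is H1f0, had ratios of -0.251 ± 0.427 (SD, n = 4) and -0.020 ± 0.511 (SD, n = 4) and went in different directions between mice. Single mice ranged from -0.82 in BR3 to 0.15 in BR1, and from -0.51 in BR9 to 0.68 in BR7, so these means depend on the mice included. No test was made of these sums, because their members were chosen with results of these data known.

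**Figure D4:**
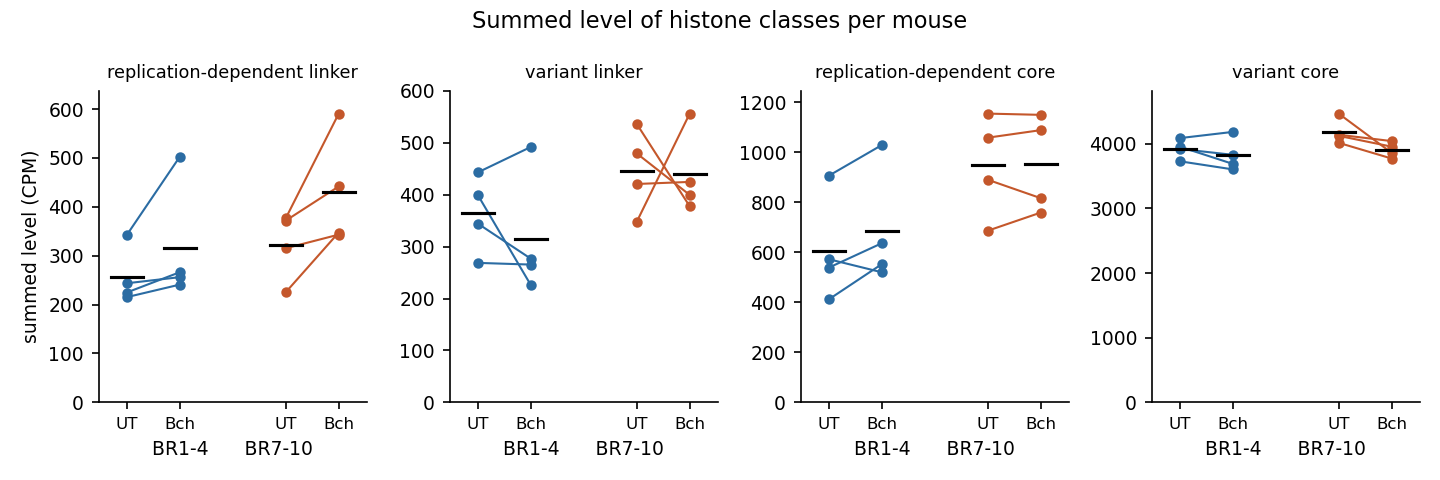
Summed level (CPM, y axes from 0) of 4 histone classes in untreated (UT) and Bch-treated cells, with a line for each mouse and a black bar for the mean of 4. The lines of the replication-dependent linker genes slope upward in 8 of 8 mice, and those of the core variants lie between 3600 and 4470 CPM.

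The untreated cells of the sets were compared to describe where they started from. Of the histone genes, 28 of 34 tested had a higher fitted level in BR7 to BR10, with a median log2 difference of 0.333 against -0.016 over all 9159 genes tested. This held for 16 of 17 replication-dependent core genes, with a median of 0.626, and for 4 of 8 core variants, with a median of 0.076. Of the histone genes 7 of 34 had an unadjusted p under 0.05 with the higher level in BR7 to BR10, against 6.66% of all genes tested, and 0 had one in the other direction. Some members, such as H2ac11 and the pseudogene H2ac5-ps, passed the filter on low counts only through BR7 to BR10, where they are higher. Many members also share sequence, as given above, so these counts are not of independent genes and are a description. The untreated core sums were 906, 539, 412 and 573 CPM in BR1 to BR4 and 891, 1160, 687 and 1060 CPM in BR7 to BR10. These groups overlapped, because BR1 lay with the mice of the other set.

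H2ac11, a replication-dependent H2A gene, was the histone gene that passed the threshold between the sets, among 1.64% of genes called. Its untreated level was 5.58, 3.31, 1.69 and 4.03 CPM in BR1 to BR4 and 10.7, 17.0, 15.8 and 7.41 CPM in BR7 to BR10. The groups did not overlap, which held for 1 of 34 histone genes and, with the higher level in BR7 to BR10, for 4.55% of all genes tested. The log2 difference was 1.60 (SE 0.41, edgeR's adjusted p = 0.0374). This call was lost without BR2, BR3, BR4, BR7, BR8 or BR9, with adjusted p-values up to 0.139, and was kept without BR1 or BR10. H2ac11 passed the filter on low counts only through BR7 to BR10, the set where it is higher, although it was also called without that filter. The call and the lack of overlap are therefore given as a description. H2ac11 is a low-count gene, with 347 UMIs in all, and untreated BR3 had 1 of them. In that sum 3 UMIs amount to 5.38 CPM of the raw total, before TMM scaling. Next in order of p were Hist1h2al (log2 difference 1.20, SE 0.38, adjusted p = 0.107) and H2ac20 (0.68, SE 0.21, edgeR's adjusted p = 0.117). Without BR1, whose untreated cells had the highest core sum of their set and the largest number of sorted cells, 6 histone genes passed the threshold among 1.89% of the 9198 genes tested in that fit, namely H2ac11, H2ac13, H2ac20, H2ax, H2bc11 and Hist1h2al. Leaving out the mouse with the highest core sum of the lower set widens the difference by construction, so this count is a description. It was 0 histone genes without BR2, BR3, BR4, BR7, BR8 or BR9, and 1, H2ac11, without BR10. H1f5 had a log2 difference of 0.34 (SE 0.20, edgeR's adjusted p = 0.535), which was 0.57 without BR1.

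**Figure D5:**
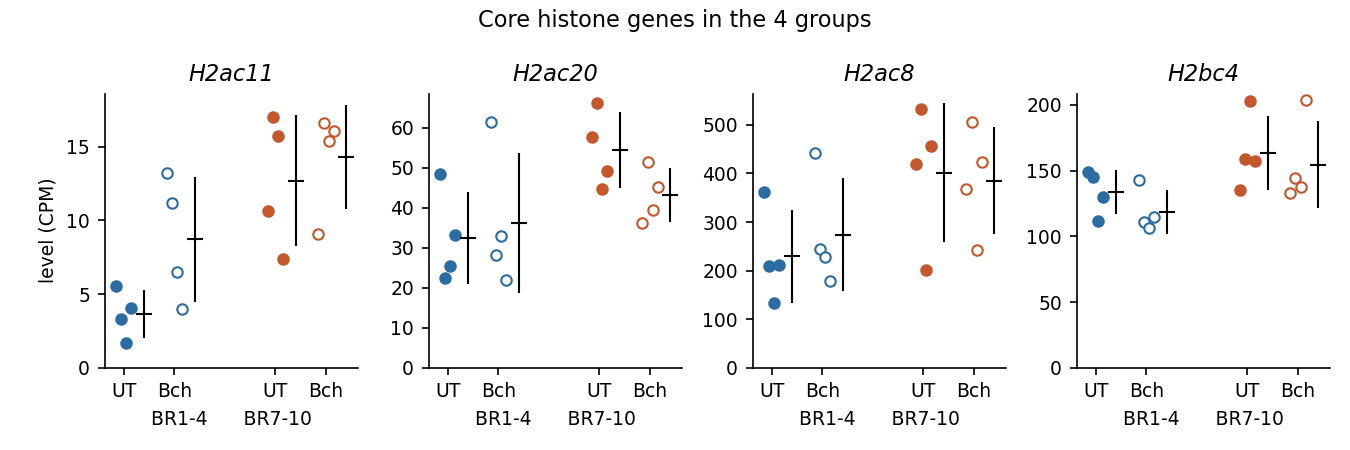
Level (CPM, y axes from 0) of 4 replication-dependent core genes in the 4 groups, with filled points for untreated (UT) and open points for Bch-treated cells of single mice and black bars for mean ± SD of 4. Untreated H2ac11 lay at 1.69 to 5.58 CPM in BR1-4 and at 7.41 to 17.0 CPM in BR7-10.

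Markers of cell state differed between the untreated sets as well. Of 10 colonocyte markers 9 were tested and 9 had a higher fitted level in BR7 to BR10, with Aqp8 called (log2 difference 1.81, SE 0.43, edgeR's adjusted p = 0.0321), and their summed level was 3090 to 3700 CPM there and 2270 to 3300 CPM in BR1 to BR4. Of 9 stem cell markers tested 8 had a lower fitted level in BR7 to BR10, with 2 called, Ascl2 and Axin2, and their sums were 741 to 837 and 918 to 1090 CPM. The 10 cycling markers summed to 861 to 1360 CPM in BR7 to BR10 and 883 to 1220 CPM in BR1 to BR4, with 0 called. Of these, 8 had a higher fitted level in BR7 to BR10, 1 of them at an unadjusted p under 0.05, and 2 a lower one. Their median log2 difference was 0.096 against -0.016 over all genes tested. Of 10 enteroendocrine markers 8 were tested, 7 had a higher fitted level in BR7 to BR10 and 0 were called, with 3 of the 7 at an unadjusted p under 0.05. Their untreated sums did not overlap, at 505 to 1050 CPM in BR7 to BR10 and 304 to 494 CPM in BR1 to BR4. Of the 10 goblet markers 8 had a higher fitted level in BR7 to BR10, 3 of them at an unadjusted p under 0.05, and 2 a lower one, with a median log2 difference of 0.331 and 0 called. The smallest p belonged to Agr2 (log2 difference 0.63, SE 0.17, edgeR's adjusted p = 0.0559), and their untreated sums were 3590 to 8870 CPM in BR7 to BR10 and 4390 to 6590 CPM in BR1 to BR4. The 10 tuft cell markers summed to 14.2 to 21.4 and 11.2 to 26.7 CPM. In bulk samples, more cells of a type and more RNA per cell cannot be told apart, and the part of these markers in the histone differences was not tested. Lgr5 itself was detected in every sum, at 12.6 to 39.1 CPM. Of 6 fibroblast markers 2 were in the table, at most 1 CPM in sum, and 5 immune markers summed to at most 11.1 CPM.

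No gene listed for making or carrying histones passed the threshold for Bch in either set. Nothing is read from this, since 0.021% of all genes tested passed in BR1 to BR4 and 0% in BR7 to BR10. SLBP, encoded by Slbp, binds the stem-loop, and NPAT drives transcription of the clusters. Slbp was at 26.8 ± 9.41 CPM (SD, n = 4) untreated and 30.9 ± 5.34 (SD, n = 4) with Bch in BR1 to BR4, and at 32.6 ± 9.97 and 35.0 ± 6.21 (SD, n = 4) in BR7 to BR10. Of 23 listed genes for histone mRNA synthesis and 3′ processing, 20 were tested and 0 passed the threshold for Bch in either set, with medians of -0.025 in BR1 to BR4 and 0.091 in BR7 to BR10. Cpsf2, a subunit of the cleavage complex, had the smallest p among the lower genes of BR1 to BR4 (log2 fold change -0.63, SE 0.22), and Cstf2 among the higher ones (0.26, SE 0.21). For BR7 to BR10 these were Cpsf3 (-0.24, SE 0.20) and Pou2f1, which encodes the octamer-binding OCT1 (0.60, SE 0.40). Of 33 histone chaperones 30 were tested, 0 passed, and the medians were -0.023 and -0.039. Asf1b, a carrier of H3 and H4, had a log2 fold change of -0.30 (SE 0.15) in BR1 to BR4, where Ubn2, of the HIRA complex for H3.3, had 0.60 (SE 0.24). The chaperone genes with the smallest p in BR7 to BR10 were Dnajc9, an H3 and H4 chaperone (-0.37, SE 0.15), and Ep400, which takes part in the exchange of H2A.Z (0.48, SE 0.32).

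S phase genes, which are transcribed together with replication-dependent histone genes, were looked at for the same comparisons. All 34 listed genes were tested in each set and 0 passed, as for nearly all genes tested. Their median log2 fold change was -0.025 in BR1 to BR4 and 0.001 in BR7 to BR10. In BR1 to BR4 the smallest p-value among the 21 genes with a lower fitted level belonged to Fen1, a flap endonuclease (-0.37, SE 0.12), and among the 13 with a higher one to Rrm2, a subunit of ribonucleotide reductase (0.21, SE 0.12). In BR7 to BR10 the corresponding genes were Pola1, of DNA polymerase alpha (-0.49, SE 0.22), and Uhrf1, which binds hemimethylated DNA (0.42, SE 0.23). Their summed level was 1970 to 2440 CPM in untreated and 1970 to 2380 CPM in Bch-treated cells of BR1 to BR4, and 1970 to 2510 and 1780 to 2270 CPM in BR7 to BR10. Of the 10 cycling markers, 3 had a higher and 7 a lower fitted level with Bch in each set, with medians of -0.048 in BR1 to BR4 and -0.066 in BR7 to BR10. Of the 10 stem cell markers, 5 were higher and 5 lower in BR1 to BR4 (median 0.004), and 6 were higher and 4 lower in BR7 to BR10 (median 0.04), with 0 of either list called. Within the stem list, Lgr5 and Ascl2 had opposite signs in each set, with log2 fold changes of -0.66 (SE 0.23) and 0.12 (SE 0.09) in BR1 to BR4 and of 0.49 (SE 0.24) and -0.32 (SE 0.13) in BR7 to BR10. The goblet markers summed to 8870, 5620, 7940 and 3590 CPM in untreated and 13500, 5390, 5290 and 6610 CPM in Bch-treated cells of BR7, BR8, BR9 and BR10, so that 2 mice were higher and 2 lower with Bch. Of the 10 genes of this list 8 had a higher fitted level with Bch in that set (median 0.221 against -0.002 over all genes tested), 2 of them at an unadjusted p under 0.05 and 0 called, with the smallest p for Fcgbp (0.77, SE 0.19). In BR1 to BR4 the goblet sum was lower with Bch in 4 of 4 mice, at 4590, 5860, 6590 and 4390 CPM untreated and 3810, 5250, 5310 and 4240 CPM with Bch. The sum of the tuft cell markers was lower in 4 of 4 of these mice as well, at 11.2 to 26.7 CPM untreated and 6.62 to 18.4 CPM with Bch, and in 3 of 4 of BR7 to BR10, at 14.2 to 21.4 and 8.62 to 23.8 CPM. These sums rest on few UMIs, and of the 10 tuft markers only 1, Rgs13, passed the filter on low counts in BR1 to BR4. The sum of the enteroendocrine markers was higher in 4 of 4 mice of BR1 to BR4, at 304 to 494 CPM untreated and 314 to 582 CPM with Bch. The enteroendocrine sum of BR7 to BR10 was lower in 3 of 4 mice, at 1050, 535, 505 and 543 CPM untreated and 1090, 477, 472 and 499 CPM with Bch, and the smallest p of that list belonged to Gcg, the proglucagon gene (-0.81, SE 0.17), with 0 called. The part of these markers in the histone values of either set was not tested.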

How the data were processed

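The authors deposited UMI counts for 23517 genes in 32 libraries, without normalization. They sequenced oligo-dT-primed cDNA and counted UMIs with the Drop-seq pipeline after alignment to GRCm38 with GENCODE annotation; a build field of the labels names GRCh38. For 1520 genes technical replicate 2 was blank and was read as 0.

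Both technical replicates were added up for every mouse and treatment. A gene with 0 UMIs could reach 0.741 CPM in the deepest and 5.38 CPM in the shallowest sum (3 UMIs, the 95% limit), which covers counting error only. These limits are CPM of the raw total, before TMM scaling. The 34 histone genes with 200 UMIs or more had log2 ratios of technical replicate 2 to 1 from -0.14 to 0.54. Counts were tested in R 4.3.3 with edgeR 4.0.16 and limma 3.58.1: filterByExpr, TMM, robust quasi-likelihood test, mouse as a block, and Benjamini-Hochberg adjustment over all genes tested. Untreated sets were compared without a block. The SE was taken as the size of the fitted log2 value over the root of its F statistic. Alternatives were the block, DESeq2 1.42.0, its size factors, no filter, single technical replicates, mitochondrial and ribosomal protein genes left out, and each mouse left out. The fits were tested on simulated data.

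Untreated and Bch-treated sums of a number come from 1 mouse, which pairs them. Correlations of their deviations from the group means over 10280 genes were 0.245, 0.033, 0.062 and 0.084 in BR1 to BR4 and 0.071, 0.151, 0.003 and -0.02 in BR7 to BR10.

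The members, lists and tests were chosen with earlier results of these data known. Genes named were H1f5, every member past the threshold, up to 4 members per direction and set that changed alike in 4 of 4 pairs, the 8 with the highest mean CPM, and 1 gene per list, direction and set. Positions and transcript sequences came from GENCODE M21 on GRCm38 (74 of 75 members matched), promoters from RefSeq on GRCm38.p6 (57 of 75).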

Additional observations from a re-analysis of the deposited data

Results flagged for a closer look

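In each of the 4 groups of 4 mice, the named histone genes and 4 class sums were searched for a sample far from the other 3, which made 80 searches. Chance flags about 1 in 20 such searches, and 6 were found. With Bch in BR1 to BR4, BR1 stood apart in H1f5 at 249 CPM against 113 to 124 CPM in the other mice. The same mouse stood apart in H2ax, at 408 CPM against 257 to 282 CPM, and in the replication-dependent linker sum, at 502 CPM against 241 to 266 CPM. Untreated BR9 stood apart in H1f5, at 113 CPM against 191 to 195 CPM in the other untreated mice of its set, and it had one of the largest increases with Bch. With Bch in BR7 to BR10, BR7 was low in H2ac11, at 9.06 CPM against 15.4 to 16.6 CPM, and BR10 was high in H2bc4, at 204 CPM against 133 to 144 CPM.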

How the results depend on the processing

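Alternatives were run for the fitted changes of histone genes printed above, and 330 of 347 alternative values kept their sign and their side of the threshold. The sign changed for H2ac8 in BR7 to BR10, from -0.02 to 0.00 with technical replicate 2 alone and within -0.12 to 0.03 when each mouse was left out. The threshold was crossed by H2ac11 and, without BR1, by Hist1h2al and H2ac20 between the untreated sets, by H1f4 and H3f3a in BR1 to BR4, as given above, and by H1f4 and H1f5 over all 8 pairs without the filter. The fit over all 8 pairs contains the BR7 to BR10 pairs used in choosing the family, so its values for these genes are a description and are not read as a test.

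The number of genes called by edgeR in BR1 to BR4 was 2, and it was 0 with no replicate block, 15 with DESeq2's Wald test, 88 without the filter and 9 with technical replicate 1 alone. The pairing changed no other count of calls. Leaving out each mouse gave 0 to 19 genes in BR1 to BR4, 0 to 4 in BR7 to BR10, 74 to 210 between the untreated sets and 0 to 1 over all 8 pairs. Without the filter the count was 234 between the untreated sets against 150, 15 over all 8 pairs, and 1 for the difference of the responses, and with technical replicate 1 alone it was 1 over all 8 pairs.

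Leaving out each mouse moved the mean log2 ratio of the replication-dependent linker sum to between 0.160 and 0.320 in BR1 to BR4 and between 0.332 and 0.508 in BR7 to BR10. For the core sum the range was 0.095 to 0.283 and -0.030 to 0.060, so that its sign in BR7 to BR10 depended on the mice included. The core variants in BR1 to BR4 had a ratio of -0.094 with CPM of the raw total against -0.038. DESeq2 gave no adjusted p for 12 of these results, H1f4 in BR1 to BR4 and H2ac11 between the untreated sets among them, and these are left out of the counts above. Depth limits the 41 members under 200 UMIs, most of which were not tested.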
